A study of Mus musculus with 6 samples.

Results

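The neuroligin genes Nlgn1, Nlgn2 and Nlgn3 and the LRRTM genes Lrrtm1, Lrrtm2, Lrrtm3 and Lrrtm4 encode postsynaptic adhesion proteins that bind neurexins. These 7 genes were chosen by symbol from the 24411 symbols counted in each library, and all 7 were found and passed the filter on low counts, which kept 15846 genes. The counts come from bulk RNA-seq of mouse tissue at postnatal day 18. They compare 3 wild-type libraries (WT) with 3 libraries from mice that carry a knockout of a large enhancer of Atoh7 (enhancer KO), a proneural basic helix-loop-helix gene needed for retinal ganglion cell fate. The labels give no strain, sex, litter or zygosity and no position of the deletion, and call the libraries independent replicates, so p-values measure only the spread between these samples. The sampling protocol names the developing cerebellum, whereas the tissue field reads retina.

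Neuroligins sit in the postsynaptic membrane and bind presynaptic neurexins across the cleft through an extracellular domain related to acetylcholinesterase, while their tails bind scaffold proteins. NLGN1 is best known at excitatory synapses, NLGN2 at inhibitory synapses, where it works with gephyrin, and NLGN3 at both. LRRTMs are leucine-rich repeat proteins of excitatory synapses: LRRTM1 and LRRTM2 bind neurexins, and LRRTM4 binds the heparan sulfate chains of neurexins and glypicans. In the cerebellum, neurexins also bind cerebellins, which link granule cell axons to the delta-type glutamate receptor of Purkinje cells.

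The 250 bases before the start of Lrrtm3, the gene that fell, and of Nlgn2, the gene with the most reads per kb, are shown because these genes moved in opposite directions. Both come from RefSeq (GRCm38.p6, the build that mm10 names), whose promoter table matched 5 of the 7 genes, and read 5′ to 3′ on the strand of the gene. Capitals mark every match to CANNTG, the E-box core bound by basic helix-loop-helix factors, which reads the same on both strands. Lrrtm3 is shown at chr10:64090256-64090505 and Nlgn2 at chr11:69837785-69838034, both on the minus strand.
Lrrtm3: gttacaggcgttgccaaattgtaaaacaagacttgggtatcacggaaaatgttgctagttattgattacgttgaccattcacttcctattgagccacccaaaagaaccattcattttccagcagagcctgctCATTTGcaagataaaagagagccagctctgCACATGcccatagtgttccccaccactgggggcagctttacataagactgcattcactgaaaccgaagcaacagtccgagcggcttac
Nlgn2: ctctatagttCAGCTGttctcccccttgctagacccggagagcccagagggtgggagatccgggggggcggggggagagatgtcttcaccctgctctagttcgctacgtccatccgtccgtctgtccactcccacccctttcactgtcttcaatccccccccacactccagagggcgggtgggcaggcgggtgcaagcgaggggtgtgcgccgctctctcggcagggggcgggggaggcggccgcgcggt
The Lrrtm3 window held 2 matches to CANNTG and the Nlgn2 window 1, which also reads CAGCTG. Of 32841 promoter windows of this length, 66.2% held CANNTG and 13% held CAGCTG, so such matches were common. The GC content was 46% for Lrrtm3 and 67.6% for Nlgn2 (median of all windows 52.4%), and the windows held 6 and 18 CpG dinucleotides (median 6). The GC box GGGCGG, searched on both strands, occurred 3 times before Nlgn2 and 0 times before Lrrtm3, and 32.7% of windows held it. These are descriptions of sequence, and no binding was measured.

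In the gene models of GENCODE release M21 on mm10, 3 of the LRRTM genes lie inside alpha-catenin genes, each on the opposite strand. Lrrtm3 lies on chromosome 10 at 63928472 to 64090277 on the minus strand, within the span of Ctnna3, with 0 bases shared between the exons of both genes. It is the only gene of the 7 on the chromosome of Atoh7, and its near end is 827.2 kb from that gene. Lrrtm1 lies on chromosome 6 at 77242689 to 77257791, in an intron of Ctnna2. Lrrtm2 lies on chromosome 18 at 35209003 to 35215024 within Ctnna1, and 95 bases of its exons overlap exons of Ctnna1. Lrrtm4, on chromosome 6 at 80018877 to 80810143, spans 791.27 kb and has no such host. Among the neuroligin genes, Nlgn1 on chromosome 3 (25426215 to 26332460) spans 906.25 kb, Nlgn2 on chromosome 11 (69823122 to 69837784) spans 14.66 kb, and Nlgn3 lies on chromosome X at 101299168 to 101325963.

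Reads in genes ranged from 22812075 to 33076111 in WT and from 36849747 to 40858310 in enhancer KO, and the 7 genes had between 310 and 14111 reads each per library. Atoh7 itself was lower in every enhancer KO library, as the labels would have it, with 0.766 ± 0.0835 CPM against 2.04 ± 0.0945 CPM in WT (SD, n = 3; edgeR adjusted p = 0.000353). CPM here are counts per 1000000 reads of the TMM-scaled library size. Photoreceptor markers summed to 1.47 to 2.07 CPM in WT and 1.14 to 1.41 in enhancer KO over 10 genes, with Arr3 at 0 in all libraries, against 1960 to 2490 and 1310 to 1640 CPM for 10 granule neuron markers. Reads outside annotated exons made up 32.4% ± 1.56 of all reads in WT and 17.4% ± 0.735 in enhancer KO (SD, n = 3). An exact permutation test gave p = 0.1, below which 6 libraries in 2 equal groups cannot go. WT replicate 2 had 20.4% unmapped reads, against 7.79% to 8.32% elsewhere. In it Rn45s took 12.9% of gene reads, against 3% and 3.02% in the other WT libraries and 1.51% to 1.68% in enhancer KO. Its TMM factor was 0.898, against 1.017 to 1.028 elsewhere. WT replicate 1 alone had high Xist (1050 CPM, against 0.743 to 1.37) and 0 Ddx3y reads.

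Of the 7 genes, 2 rose (Nlgn2 and Nlgn3), 1 fell (Lrrtm3) and 4 did not pass edgeR's quasi-likelihood test at an adjusted p under 0.05. Over all genes tested, 31.3% were called, 13.4% higher and 17.9% lower, so a share like this is near the background. The differences of the called genes were small, from 12% up (Nlgn2) and 14.5% up (Nlgn3) to -14.6% (Lrrtm3). WT and enhancer KO ranges did not overlap for the same 3 genes, against 44.8% of all genes tested (20.5% with enhancer KO above and 24.3% below). Over all genes, the share called moved with the libraries kept. It was 30.7%, 26% and 23.3% without WT replicate 1, 2 or 3, and 24.2%, 22.9% and 29% without enhancer KO replicate 1, 2 or 3. It was 19.1% without WT replicates 2 and 3 together, 24.3% with scaling by library size only, 30.8% with Xist as a covariate, 35.2% in the unstranded column and 32.1% after removal of the structure trend, the trend of each library over intron length, exon length and GC content. With replicate numbers as a block it was 29%. The median log2 fold change was 0.16 over the 3 neuroligins and -0.13 over the 4 LRRTMs, against 0.00059 over all genes tested. The neuroligin median is the Nlgn2 value. The LRRTM median lies between Lrrtm2 (-0.07) and Lrrtm4 (-0.18), neither of which passed. Lrrtm4 was at 0.02 without WT replicate 1. In bulk tissue, fewer cells of a type and less RNA per cell cannot be told apart. Every enhancer KO library also lay apart from every WT library in reads outside exons (16.8% to 18.2%, against 31.1% to 34.1%). The same held for reads aligned to several places (10.2% to 11.3%, against 7.1% to 8.21%). The part of these library differences in the Nlgn2, Nlgn3 and Lrrtm3 values was not tested.

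**Figure D1:**
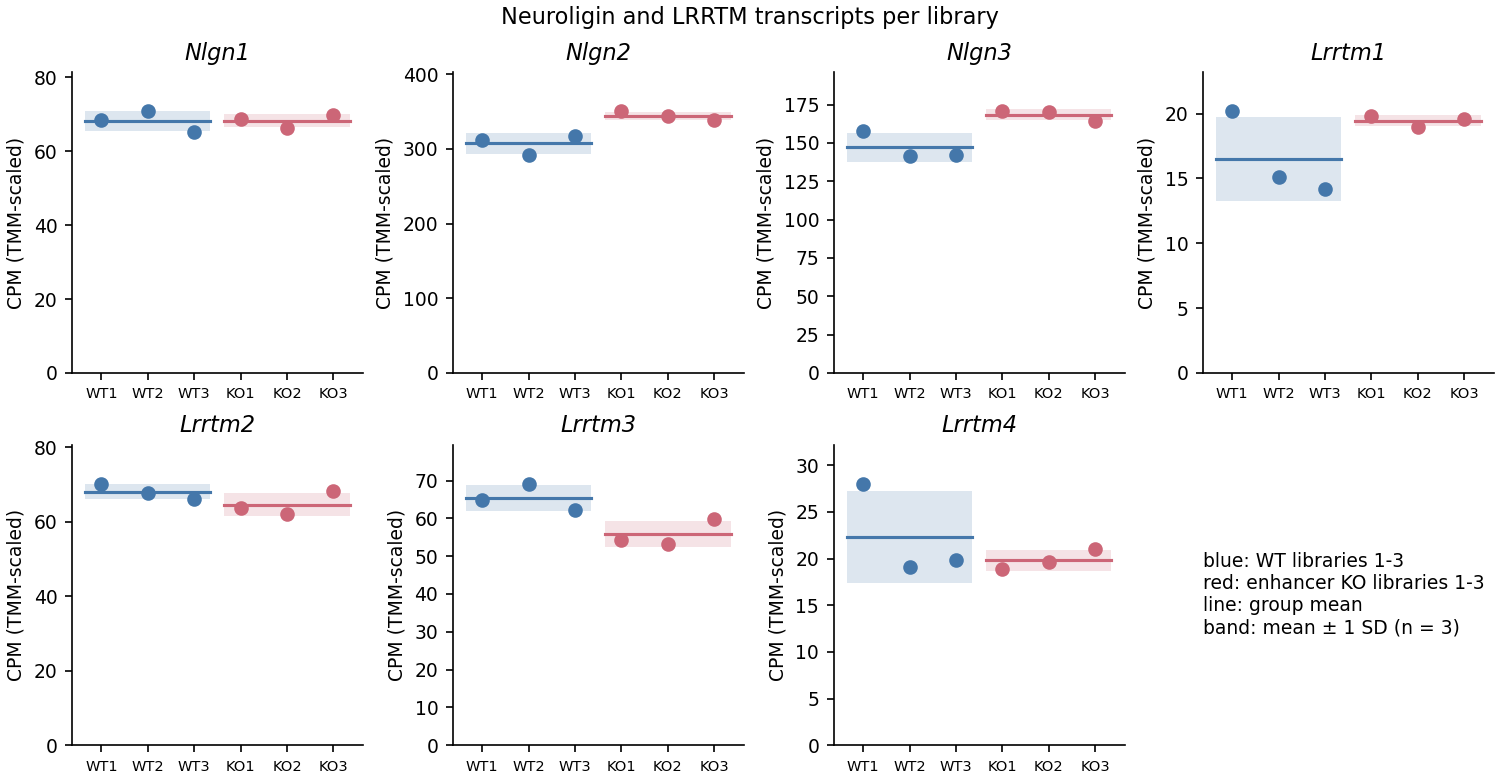
CPM (TMM-scaled, y axis from 0) of each neuroligin and LRRTM gene in the 3 WT (blue) and 3 enhancer KO (red) libraries, 1 point per library, with the group mean (line) and ±1 SD (band). Nlgn2 and Nlgn3 lie higher and Lrrtm3 lower in every enhancer KO library than in every WT library, while WT replicate 1 stands above the other WT libraries for Lrrtm1 and Lrrtm4.

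Nlgn2, the neuroligin of inhibitory synapses, had the most reads per kb of the 7 and rose slightly. It had 312, 292 and 317 CPM in WT replicates 1 to 3 and 350.0, 344 and 338 CPM in enhancer KO replicates 1 to 3. Every enhancer KO library lay above every WT library, although the gap between the nearest libraries (317 and 338 CPM) was smaller than the range within WT. The means were 307 ± 13.5 and 344 ± 5.84 CPM (SD, n = 3). On the log2 scale this difference was 0.16 ± 0.0448 (SE), which passed with an edgeR adjusted p of 0.0158. It no longer passed when enhancer KO replicate 1 or 2 was left out (0.16 and 0.17, with edgeR adjusted p = 0.0572 and 0.0524).

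Nlgn3, the X-linked neuroligin found at excitatory and inhibitory synapses, rose by a similar amount. Its levels were 158, 141 and 142 CPM in WT and 170, 170 and 164 CPM in enhancer KO. WT replicate 1, the library with high Xist, was the highest WT library and the nearest to the enhancer KO range. The means were 147 ± 9.15 and 168 ± 3.48 CPM (SD, n = 3), which is 0.20 ± 0.0480 (SE) as a log2 difference, at an edgeR adjusted p of 0.00895. It passed with each single library left out, at log2 fold changes from 0.17 to 0.25. With WT replicates 2 and 3 both left out, WT replicate 1 was the only control, and its spread was taken to be that of enhancer KO. Nlgn3 was then at 0.12 and missed the threshold (edgeR adjusted p = 0.143), and in that fit sex differs with genotype, so that they cannot be told apart.

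Nlgn1, known for its role at excitatory synapses, did not pass. It had 68.5, 70.8 and 65.2 CPM in WT and 68.6, 66.3 and 69.8 CPM in enhancer KO, and the enhancer KO range lay within the WT range. The means were 68.2 ± 2.79 and 68.2 ± 1.78 CPM (SD, n = 3). Its log2 difference was 0.0027 ± 0.0460 (SE), at an edgeR adjusted p of 0.972 and with a 95% interval from -0.10 to 0.10. After removal of the structure trend it was 0.098 ± 0.0424 (SE), which missed the threshold (edgeR adjusted p = 0.0972). The differences between the genes were not tested.

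Lrrtm3, the LRRTM gene on the chromosome of Atoh7, was the gene of the 7 that fell. It had 65.0, 69.2 and 62.3 CPM in WT and 54.4, 53.3 and 59.8 CPM in enhancer KO. The groups did not overlap, with enhancer KO replicate 3 the nearest to WT. The means were 65.5 ± 3.44 and 55.8 ± 3.46 CPM (SD, n = 3). On the log2 scale the difference was -0.23 ± 0.0565 (SE), at an edgeR adjusted p of 0.00942. The estimate stayed negative under each of 18 alternatives but missed the threshold in some. These were the fits leaving out WT replicate 2 (-0.18), enhancer KO replicate 1 (-0.20) or enhancer KO replicate 2 (-0.20), at edgeR adjusted p of 0.0572, 0.0587 and 0.0505, the fit with WT replicate 1 as the only control (-0.20; 0.0901) and scaling by library size only (-0.16; 0.122). After removal of the structure trend it was -0.25 and passed (edgeR adjusted p = 0.00554).

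Ctnna3, the alpha-catenin gene around Lrrtm3, had fewer reads and did not pass. It stood at 12.2, 12.9 and 13.2 CPM in WT and 13.6, 8.89 and 11.1 CPM in enhancer KO, with overlapping groups. Its log2 difference was -0.19 ± 0.135 (SE), at an edgeR adjusted p of 0.330, a point estimate near that of Lrrtm3 with a larger error. With 1 library left out it ranged from -0.34 to -0.046, and it did not pass in those fits. Whether host and nested gene differ was not tested. The other hosts, Ctnna1 and Ctnna2, had log2 fold changes of 0.04 and 0.01 and missed the threshold (edgeR adjusted p = 0.717 and 0.891). Leaving out 1 library turned the sign of both, to -0.01 for Ctnna1 without enhancer KO replicate 2 and to -0.02 and -0.01 for Ctnna2 without WT replicate 3 or enhancer KO replicate 3. Ctnna2 was at -0.02 after removal of the structure trend.

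Lrrtm2, which binds neurexins at excitatory synapses, did not pass. Its levels were 70.2, 67.8 and 66.2 CPM in WT and 63.7, 62.0 and 68.2 CPM in enhancer KO, where enhancer KO replicate 3 lay within the WT range. The means were 68.1 ± 2.06 and 64.7 ± 3.21 CPM (SD, n = 3). The log2 difference was -0.07 ± 0.0489 (SE), with a 95% interval from -0.18 to 0.03 and an edgeR adjusted p of 0.281. Its sign turned, to 0.059, after removal of the structure trend.

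Lrrtm1, whose product binds neurexins, and Lrrtm4, whose product binds heparan sulfate, had the fewest reads of the 7, and in both WT replicate 1 stood apart. Lrrtm1 had 20.2, 15.1 and 14.2 CPM in WT and 19.8, 19.0 and 19.6 CPM in enhancer KO. WT replicate 1 was above all enhancer KO libraries and the other WT libraries were below them. On the log2 scale Lrrtm1 differed by 0.23 ± 0.117 (SE), with a 95% interval from -0.03 to 0.49 and an edgeR adjusted p of 0.162. Without WT replicate 1 it was 0.41 and passed (edgeR adjusted p = 0.00139), as it did at 0.42 with Xist as a covariate (0.00120). Xist was high in WT replicate 1 alone, so that covariate in effect sets this library aside and is not a separate check. With WT replicate 1 as the only control Lrrtm1 was at -0.03.

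Lrrtm4 had 28, 19.1 and 19.9 CPM in WT and 18.9, 19.6 and 21.1 CPM in enhancer KO. Here WT replicate 1 was above all other libraries, which overlapped. The log2 difference was -0.18 ± 0.142 (SE), with a 95% interval from -0.51 to 0.15 and an edgeR adjusted p of 0.396. Without WT replicate 1 it was 0.02 (edgeR adjusted p = 0.846). With Xist as a covariate, which in effect sets that library aside too, it was 0.03 (edgeR adjusted p = 0.816). With WT replicate 1 as the only control it was -0.47. The sign of Lrrtm4 thus turned when that library was left out, while it was not called with or without it.

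The library that sets Lrrtm1 and Lrrtm4 apart, WT replicate 1, also had the highest CPM among WT libraries for 7 of 9 midbrain markers. The lead was small for some, as for Th (11.1 CPM, against 10.6 and 10.7 CPM). Not so for En2 (64.5 CPM, against 71.5 and 76.4 CPM) and Otx2 (11.3 CPM, against 10.6 and 13.9 CPM). The share of all genes that were highest in that library was not counted. The list was chosen with earlier results of these data known, so the count is no independent support. Tph2, the serotonin synthesis gene, had 28.2 CPM in WT replicate 1 and 9.18 and 13.6 CPM in the other WT libraries, against 13.9, 18 and 22.1 CPM in enhancer KO. Gata3, a midbrain and hindbrain transcription factor gene, had 8.70 CPM there, 3.52 and 4.05 CPM in the other WT libraries and 6.06 to 7.65 CPM in enhancer KO. Over all 9 markers the sum was 155 CPM in WT replicate 1, 127 and 145 CPM in the other WT libraries and 122 to 134 CPM in enhancer KO. None of the 9 was at 0 in every library, and En2, which granule cells also express, gave the largest part of the sum. The part of these markers, or of sex, in the Lrrtm1 and Lrrtm4 values was not tested.

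**Figure D2:**
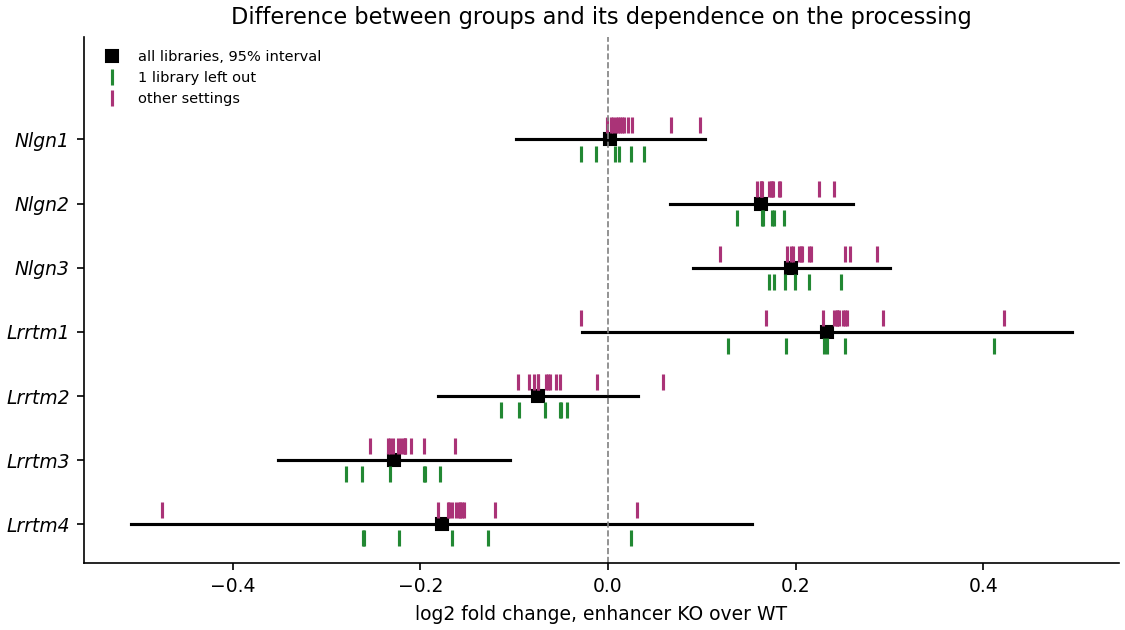
Log2 fold change of each gene, enhancer KO over WT (x axis), with all 6 libraries (square, line 95% interval), with 1 library left out (lower ticks) and under the other settings (upper ticks). The intervals of Nlgn2, Nlgn3 and Lrrtm3 exclude 0, and the ticks of Lrrtm1 and Lrrtm4 spread over both sides of 0.

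Read levels were set beside each other only per length, as CPM per kb of exon in the GENCODE models, which is approximate because the gene models used for counting were not given in the sources used here. In WT the order was Nlgn2 at 53.1 ± 2.33, Nlgn3 at 15.9 ± 0.987, Lrrtm3 at 15.4 ± 0.810, Lrrtm2 at 11.3 ± 0.342, Lrrtm1 at 5.44 ± 1.06, Nlgn1 at 5.08 ± 0.208 and Lrrtm4 at 3.63 ± 0.807 CPM per kb (SD, n = 3). Nlgn3 and Lrrtm3 overlapped in WT (15.2 to 17.0 and 14.7 to 16.3), as did Lrrtm1 and Nlgn1 (4.67 to 6.65 and 4.86 to 5.27), while the other neighbours in the order did not. In enhancer KO all neighbours were apart, with Nlgn3 at 17.7 to 18.4 above Lrrtm3 at 12.5 to 14.1 and Lrrtm1 at 6.26 to 6.53 above Nlgn1 at 4.94 to 5.2 CPM per kb. These lengths take all exons of a gene together. The longest transcript is shorter, as for Lrrtm4 (4.435 kb in place of 6.147 kb) and Nlgn1 (11.807 kb in place of 13.422 kb). The WT order of Lrrtm1, Nlgn1 and Lrrtm4 depends on the length used.

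Within each family, the shares of reads per kb differed most among the LRRTMs. Lrrtm1 made up 17.4%, 14.0% and 13.9% of LRRTM reads per kb in WT and 19.8%, 19.4% and 18.3% in enhancer KO. Lrrtm3 made up 40.1%, 45.7% and 43.7% in WT and 38.8%, 38.8% and 39.9% in enhancer KO. Neither pair of ranges overlapped, though for Lrrtm3 the nearest libraries were 40.1% and 39.9%. Each share also depends on the other members of the family, and in CPM the Lrrtm1 ranges overlapped. The difference of the means, enhancer KO minus WT, was 4.04 percentage points for Lrrtm1 and -3.97 for Lrrtm3 (exact permutation p = 0.1 for each, and 0.233 adjusted over the 7 shares). With p of 0.1 as the least possible, no share could pass. Lrrtm2 (31.6% and 32.0%) and Lrrtm4 (10.1% and 9.63%) had WT and enhancer KO ranges that overlapped.

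Among the neuroligins, Nlgn2 held 71.7% ± 1.2 of reads per kb in WT and 71.9% ± 0.115 in enhancer KO, and Nlgn3 21.4% ± 0.955 and 22% ± 0.226 (SD, n = 3). Nlgn1 held 6.87% ± 0.498 and 6.15% ± 0.214, with ranges that did not overlap (exact permutation p = 0.1; 0.233 adjusted over the 7 shares). A share also moves when other members of the family do, and Nlgn1 itself had a mean of 68.2 CPM in both groups. Nlgn2 was thus the main neuroligin transcript per length in every library, between 70.9% and 73.1%.

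**Figure D3:**
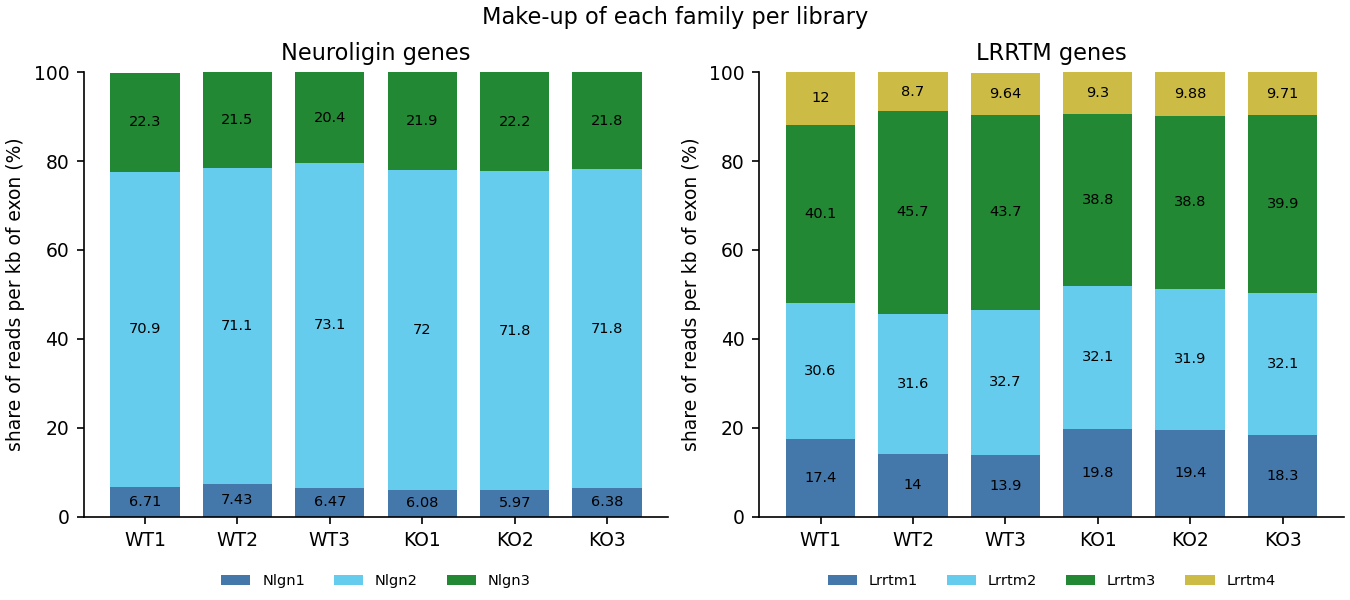
Share (%) of each gene in the reads per kb of exon of its family, neuroligins on the left and LRRTMs on the right, 1 stacked bar per library. Nlgn2 fills 70.9% to 73.1% of every neuroligin bar, and the Lrrtm1 share is 18.3% to 19.8% in enhancer KO against 13.9% to 17.4% in WT. Each share also depends on the other genes of the family.

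Because 3 LRRTM genes are nested in genes of the opposite strand, the reads on that strand were also examined. Over Lrrtm1 exons there were 52, 25 and 46 such reads in WT and 17, 16 and 18 in enhancer KO, or 1.40 ± 0.193 and 0.433 ± 0.0180 reads per 1000000 of the scaled library size (RPM; SD, n = 3). Over Lrrtm2 exons there were 72, 57 and 74 and then 38, 44 and 23, or 2.40 ± 0.334 and 0.902 ± 0.311 RPM. Over Lrrtm3 exons the numbers were 25, 21 and 24 and then 16, 13 and 14, or 0.836 ± 0.167 and 0.366 ± 0.0511 RPM. All 3 were lower in every enhancer KO library than in every WT library, while on the sense strand only Lrrtm3 was called. The opposite-strand share of the whole libraries was lower too, at 1.62% to 1.7% in enhancer KO and 1.76% to 1.88% in WT. How many of all genes showed such a gap on the opposite strand was not counted. No test was made of the reads on the opposite strand. These opposite-strand reads were 7.37% to 8.76% of the reads of both strands at Lrrtm1 in WT and 2.14% to 2.23% in enhancer KO. At Lrrtm3 they were 0.559% to 1.46% over all libraries, against 0.889% to 1.54% at Nlgn1 and 1.62% to 1.88% over the whole libraries, so these reads are not shown to come from the host at Lrrtm3.

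Lrrtm4, which has no host on the other strand, had 0 or 1 opposite-strand reads per library. Nlgn1 had 34, 13 and 20 in WT and 31, 40 and 33 in enhancer KO, with overlapping levels in RPM (0.592 to 1.05 and 0.791 to 1.04). The share of reads outside exons was lower in the same libraries (17.4% against 32.4%), and its part in the opposite-strand reads was not tested. In the unstranded column, which adds both strands, Lrrtm1 had a log2 fold change of 0.17 in place of 0.23, and Nlgn2, Nlgn3 and Lrrtm3 were called as before.

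**Figure D4:**
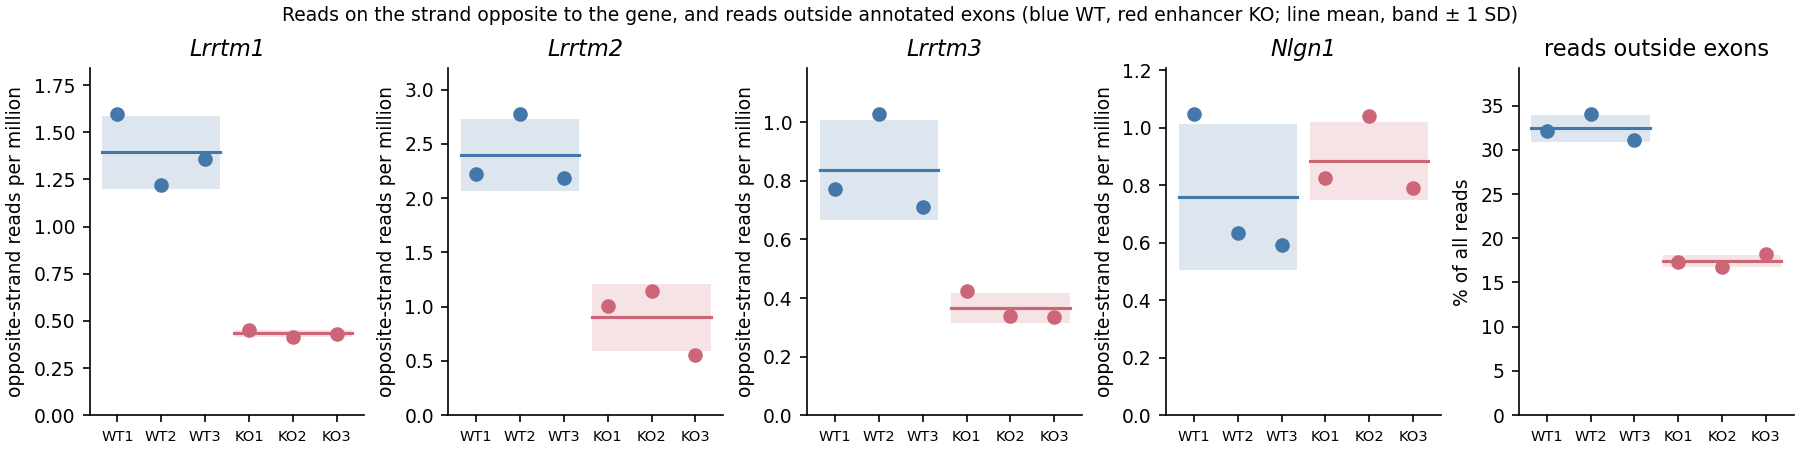
Reads on the strand opposite to Lrrtm1, Lrrtm2, Lrrtm3 and Nlgn1 (RPM, of the TMM-scaled library size) and reads outside annotated exons (% of all reads), per library (blue WT, red enhancer KO, line mean, band ±1 SD). At the 3 nested LRRTM genes and in the reads outside exons every enhancer KO library is below every WT library, which is not so at Nlgn1.

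Likeness between the 7 genes was measured as the root mean square difference of centred log2 CPM over the 6 libraries. Nlgn2 and Nlgn3 were the most alike pair at 0.0537, closely followed by Nlgn1 and Lrrtm2 at 0.0539. The least alike were Lrrtm1 and Lrrtm3 at 0.294. Among 14241 genes with at least 1 CPM, those nearest to Nlgn2 were Mgrn1 and Nhsl1 (0.00787 and 0.0108), to Nlgn3 Enah and Sash1 (0.0115 and 0.0125) and to Nlgn1 Dync1li1 and Rab11fip2 (0.00540 and 0.0126). For Lrrtm3 they were Ppil4 and A830010M20Rik (0.0204 and 0.0205), for Lrrtm2 Ube2b and Zdhhc16 (0.0136 and 0.0157), for Lrrtm1 Cx3cl1 and Stxbp6 (0.0287 and 0.0296) and for Lrrtm4 Agbl4 and Matk (0.0422 and 0.0629). The median over all genes lay between 0.124 and 0.234 for the 7 genes.

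Neurexins are the presynaptic receptors that both families share, and Nrxn2 and Nrxn3 were examined. Nrxn3 fell from 349, 368 and 348 CPM in WT to 285, 271 and 289 CPM in enhancer KO, which is -0.33 ± 0.0445 (SE) on the log2 scale (edgeR adjusted p = 0.000197), and kept its call with each single library left out. Nrxn2 had 514 ± 25.5 and 506 ± 18.7 CPM (SD, n = 3) and did not pass (edgeR adjusted p = 0.750). Its log2 fold change was -0.02, and 0.01 without WT replicate 1.

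Over the 10 pathway lists together, 12 of 84 genes tested rose and 14 fell, with a median log2 fold change of 0.03, against 13.4% higher and 17.9% lower of all genes tested. Without WT replicate 1, 23 rose, and without WT replicate 2, 7 rose. Of all genes tested, 2214 of 16048 and 1803 of 16126 rose in these fits, in that order. The number of pathway genes that fell was 9 when WT replicate 2 was left out, and 7 or 8 when enhancer KO replicate 1 or 2 was. Of all genes tested, 2382 of 16126, 2181 of 15976 and 2232 of 15978 fell in these fits. The pathway number was also 7 under scaling by library size only (1689 of 15846 over all genes). After removal of the structure trend it was 8 (2163 of 15846 over all genes).

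Other neurexin partners moved in both directions: 1 of 16 rose, 3 fell and 12 did not pass, with a median of 0.02. The cerebellins Cbln1 and Cbln3, secreted partners made by granule cells, fell. Cbln1 had 326 ± 39.1 and 206 ± 33.4 CPM and Cbln3 397 ± 46.6 and 246 ± 42.5 CPM in WT and enhancer KO (SD, n = 3; edgeR adjusted p = 0.0238 and 0.0228). All 10 granule neuron markers, of which Cbln3 is 1, were lower too. Without a filter on low counts Cbln1 and Cbln3 missed the threshold (edgeR adjusted p = 0.0546 and 0.0535), as did Cbln1 after removal of the structure trend (0.0590). Igsf21, a neurexin ligand of inhibitory synapses, fell with a log2 fold change of -0.20 and the calsyntenin gene Clstn3 rose with one of 0.16 (edgeR adjusted p = 0.0114 and 0.0212). Leaving out any 1 of WT replicates 2 and 3 and enhancer KO replicates 1 and 2 ended the calls of Cbln1 and Cbln3 (edgeR adjusted p from 0.0642 to 0.0806 for Cbln1 and from 0.0541 to 0.0799 for Cbln3). The call of Igsf21 ended under scaling by library size only (0.225) and when WT replicate 3 or enhancer KO replicate 1 or 2 was left out (0.0502, 0.0617 and 0.0652), and that of Clstn3 when WT replicate 2 or enhancer KO replicate 1 was (0.0520 and 0.0987).

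Of the 4 genes for neuroligin inhibitors and adaptors, 2 rose and 1 fell. Lhfpl4, whose product joins NLGN2 to GABA-A receptors, rose from 90.9 ± 7.22 to 119 ± 3.07 CPM (SD, n = 3), or by 0.39 on the log2 scale (edgeR adjusted p = 0.000280), and kept its call with each single library left out. Its relative Lhfpl3 had a log2 fold change of 0.14 (edgeR adjusted p = 0.0428). Mdga1, whose product binds neuroligins and blocks neurexin, fell, WT being at 40.4 ± 3.34 and enhancer KO at 34.4 ± 0.664 CPM (SD, n = 3; edgeR adjusted p = 0.0134), and Mdga2 did not pass (log2 fold change 0.06; adjusted p = 0.408, named after its values were seen). Mdga1 missed the threshold when WT replicate 3 or enhancer KO replicate 1 was left out (edgeR adjusted p = 0.0692 and 0.0504), under scaling by library size only (0.164) and after removal of the structure trend (0.104). Lhfpl3 missed it with any library but WT replicate 1 left out (0.119 and 0.118 for WT replicates 2 and 3, and 0.0651, 0.0559 and 0.143 for enhancer KO replicates 1 to 3). Its call also ended by DESeq2 (0.0589) and voom (0.0561), under scaling by library size only (0.0597) and after removal of the structure trend, where it was at 0.077 (0.230).

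Scaffold genes of excitatory synapses had 4 of 15 members higher, 2 lower and 9 with no call, with a median of 0.07. Shank1, a postsynaptic density scaffold, rose from 615 ± 41.0 to 722 ± 28.6 CPM, and Dlg4, the gene of the neuroligin tail partner PSD-95, which had 366 ± 15.8 and 409 ± 6.45 CPM, rose too (SD, n = 3; edgeR adjusted p = 0.00660 and 0.0185). Magi1 and Dlg1 fell with log2 fold changes of -0.18 and -0.16 (edgeR adjusted p = 0.00882 and 0.0152). Dlg4 missed the threshold when WT replicate 2 or 3 or enhancer KO replicate 1 was left out (edgeR adjusted p = 0.0503, 0.0586 and 0.0630), and Dlg1 when WT replicate 2 or enhancer KO replicate 1 was (0.0802 and 0.0857). Under scaling by library size only, Magi1 and Dlg1 did not pass either (0.299 and 0.389), and after removal of the structure trend Dlg1 was at -0.088 (0.137) and Dlg4 at 0.29.

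Of 4 inhibitory scaffold genes tested (Insyn1 and Insyn2a were not analysed here), 1 rose, 1 fell and 2 did not pass. Iqsec3, an exchange factor bound to gephyrin, rose from 223 ± 18.6 to 272 ± 11.1 CPM, whereas Gphn, the gephyrin gene itself, fell, with 93.2 ± 5.87 and 81.7 ± 3.47 CPM (SD, n = 3; edgeR adjusted p = 0.00354 and 0.0171). Gphn missed the threshold when WT replicate 2 or enhancer KO replicate 1 or 2 was left out (edgeR adjusted p = 0.0990, 0.0714 and 0.0762) or under scaling by library size only (0.234). Iqsec3 missed it with WT replicate 1 as the only control (0.0533). The median of the list was 0.02.

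Among heparan sulfate proteoglycans, the class that LRRTM4 binds, 2 of 10 rose, 1 fell and 7 did not pass, with a median of 0.15. The syndecan gene Sdc4 rose from 124 ± 1.49 to 156 ± 7.08 CPM, and Sdc3, with 337 ± 9.08 and 377 ± 2.28 CPM, rose too (SD, n = 3; edgeR adjusted p = 0.000168 and 0.0105), and both kept their calls with each single library left out. Sdc3 had a log2 fold change of 0.16, and of 0.25 after removal of the structure trend. The glypican gene Gpc2 fell, with 5.44 ± 0.920 and 4.10 ± 0.229 CPM (SD, n = 3; edgeR adjusted p = 0.0455), and missed the threshold with any library but WT replicate 1 left out (0.0599 to 0.241). The call of Gpc2 also ended by DESeq2 (0.0869) and voom (0.0508), under scaling by library size only (0.113), without Rn45s (0.0526) and after removal of the structure trend (0.0627). Astrocyte and Bergmann glia markers summed to 6790 to 6910 CPM in WT and 7940 to 8360 CPM in enhancer KO, with 3 of 10 higher and 7 with no call. Slc1a2 alone had means of 3181 and 3980 CPM, a large part of the change in the sum. The part of these markers in the syndecan values was not tested.

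Receptors and organizers outside the neurexin system also split. Ptprd, a presynaptic receptor-type phosphatase gene, fell, with 492 ± 26.7 and 378 ± 7.48 CPM (SD, n = 3; edgeR adjusted p = 0.000150), the 1 of 3 such genes called. After removal of the structure trend the log2 fold change of Ptprd was -0.19 in place of -0.38 and still passed (edgeR adjusted p = 0.0173). Of 24 other postsynaptic organizers, 2 rose, 4 fell and 18 did not pass, with a median of -0.0077. The neurotrophin receptor gene Ntrk3 (-0.39), the adhesion gene Cadm3 (-0.41) and Il1rapl1 (-0.45) fell, and Cadm4 rose (0.35), as log2 fold changes with edgeR adjusted p from 2.71e-05 to 0.00256. After removal of the structure trend Ntrk3 was at -0.06 and missed the threshold (0.267). The 3 KH-domain splicing regulators of neurexin transcripts had 0 calls by edgeR, DESeq2 and voom, and 1 (Khdrbs3) had an unadjusted edgeR p under 0.05. Khdrbs3 had a log2 fold change of 0.19 (edgeR adjusted p = 0.116). It was called higher without WT replicate 1 (0.00936) or enhancer KO replicate 3 (0.0482), and with Xist as a covariate (0.00693). That covariate in effect sets WT replicate 1 aside. For Khdrbs1 the log2 fold change was -0.02 (edgeR adjusted p = 0.738), which turned to 0.0075 without enhancer KO replicate 1.

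**Figure D5:**
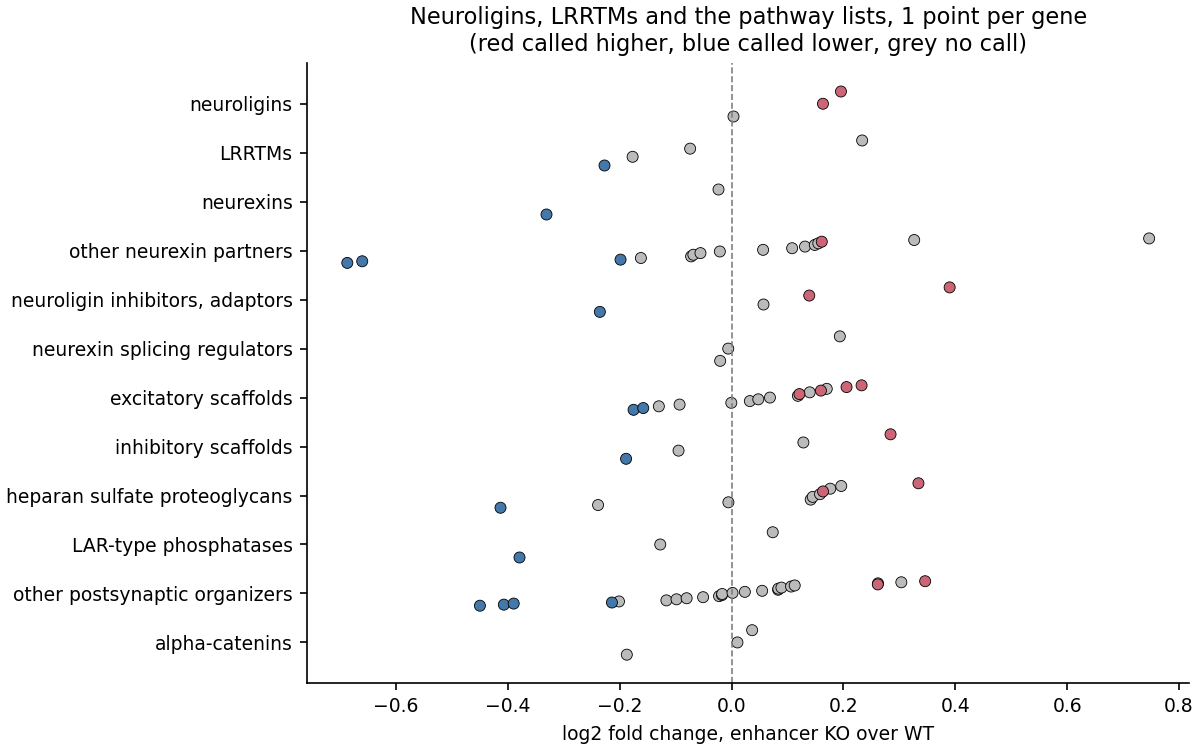
Log2 fold change, enhancer KO over WT (x axis), of each tested gene of the neuroligins, the LRRTMs and the 10 pathway lists (rows), with calls in red (higher) and blue (lower) and grey for no call. Of the 10 lists, 6 hold calls on both sides of 0, and Nrxn3 is called lower at -0.33.

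Markers of the cell types that carry these synapses differed between the same libraries. Summed over 10 genes each, granule neuron markers were 1960 to 2490 CPM in WT and 1310 to 1640 CPM in enhancer KO (10 of 10 lower), and Purkinje markers 4610 to 5550 and 6350 to 6740 CPM (7 of 10 higher). Interneuron and Golgi cell markers were 1150 to 1270 and 1350 to 1420 CPM, with 4 of 10 higher and 1 lower. Oligodendrocyte markers overlapped at 29500 to 32800 and 32400 to 35600 CPM (1 of 10 higher, 2 lower), and oligodendrocyte precursor markers were 819 to 849 and 738 to 799 CPM (2 of 7 lower). Retinal markers were set beside these because the tissue field reads retina. Of 7 retinal ganglion markers tested 1 was higher, Thy1. Of 2 photoreceptor markers tested 1 was lower, Rcvrn, which is near the floor with 4 to 20 reads per library. Over all genes tested, 13.4% were called higher and 17.9% lower. The part of cell make-up in the Nlgn2, Nlgn3 and Lrrtm3 values was not tested.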

How the data were processed

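Trimmomatic, STAR and mm10 are named in the submitters' processing notes, in which neither versions nor settings appear, and the gene annotation was not given in the sources used here. What the authors deposited are raw read counts per gene for each strand and for both, with no normalization, and the 4 rows that name no gene were left out. Column 4 was used, since 1.62% to 1.88% of stranded reads lay on the other strand. STAR counts only reads that align to 1 place.

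The filter on low counts was filterByExpr (edgeR 4.0.16, R 4.3.3), and scaling was by TMM. Groups were compared by edgeR's quasi-likelihood test (robust, two-sided) with Benjamini-Hochberg adjustment over all 15846 genes and a threshold of 0.05. The SE was derived from the F statistic. For shares, exact permutation tests (two-sided) were used. The fit was also run on simulated data. There the share of false calls was above the threshold of 0.05, and most 1.2-fold changes were missed. A far smaller share of genes was changed in the simulation than was called here, so these rates may not hold for these data.

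Gene models came from GENCODE M21, which matched 23334 of 24411 symbols directly and 649 by an older symbol. Alternatives were RLE scaling, library size only, other filters on low counts, DESeq2 1.42.0, voom of limma 3.58.1, the unstranded column, a replicate block, Xist as a covariate, Rn45s left out, removal of a trend over gene structure (mgcv 1.9.3) and each library left out. The fit without WT replicates 2 and 3 was added after seeing the data. Each pathway list gave up to 4 called genes with the smallest p, or the 2 most abundant where none passed. All genes of the neuroligin, LRRTM, neurexin and alpha-catenin lists are named, with the 2 genes most alike each of the 7. The genes and lists were chosen with earlier results of these data known. A result for 1 listed gene is not reported here.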

Additional observations from a re-analysis of the deposited data

How the results depend on the processing

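Of 315 values recomputed for 22 results, 278 kept their direction and their side of the threshold or stayed within the limits set, and 37 did not. Under scaling by library size only, Lrrtm3 had a log2 fold change of -0.16 and did not pass, so that 0 of the 7 genes were lower, 7 pathway genes and 1689 of all genes were lower, and Nrxn2 (0.037) and Khdrbs1 (0.044) changed sign; the median of all genes moved by less than 0.1 (to 0.0628). Lower genes made up 57.3% of calls, 43.8% under that scaling and 42.5% after removal of the structure trend. After that removal, Lrrtm2 was at 0.059, Nrxn2 at 0.089, Khdrbs1 at 0.043 and Ctnna2 at -0.017. In that fit 8 pathway genes and 2163 of all genes were lower. With a minimum of 1 CPM in 3 libraries Nlgn1 was at -0.0015. With Xist as a covariate, Lrrtm1 was at 0.42 and called, Lrrtm4 at 0.031 and Nrxn2 at 0.012. With that covariate 23 pathway genes and 2205 of all genes were higher. Xist was high in WT replicate 1 alone, so this fit in effect sets that library aside. Without WT replicates 2 and 3 together, chosen after seeing the data, Nlgn3 was at 0.12, Lrrtm1 at -0.029, Lrrtm3 at -0.20, Lrrtm4 at -0.47 and Ctnna2 at -0.020; 1 of the 7 genes and 7 pathway genes were then higher, and 9 pathway genes and 1640 of all genes lower. The cause of these changes was not tested.

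With 1 library left out, log2 fold changes ranged from -0.028 to 0.039 for Nlgn1, 0.14 to 0.19 for Nlgn2, 0.17 to 0.25 for Nlgn3, 0.13 to 0.41 for Lrrtm1, -0.11 to -0.043 for Lrrtm2, -0.28 to -0.18 for Lrrtm3, -0.26 to 0.025 for Lrrtm4 and -1.50 to -1.34 for Atoh7. They ranged from -0.053 to 0.012 for Nrxn2, -0.041 to 0.0075 for Khdrbs1, -0.010 to 0.12 for Ctnna1 and -0.024 to 0.039 for Ctnna2. Of the 7 genes, 1 to 3 were higher and 0 to 1 lower. Of pathway genes, 7 to 23 were higher and 7 to 14 lower. Over all genes, 1420 to 2214 were higher and 2181 to 2710 lower. Counts in single lists stayed within 1.5 times in 286 of 360 cases, and 23 of the other 74 rose.

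WT and enhancer KO samples share replicate numbers, but same-numbered samples did not deviate together (correlations -0.0795 to 0.0526), and 2 of 6 libraries correlated best with their own number. With the replicate block Nlgn2 was at 0.16, Nlgn3 at 0.20 and Lrrtm3 at -0.23 (edgeR adjusted p = 0.0269, 0.00850 and 0.0226), and 4596 genes were called in place of 4964. The block ended the calls of Lhfpl3 (0.0580) and Gpc2 (0.0819). Lrrtm1 and Lrrtm4 had 310 to 909 reads per library. Their SE was 0.117 and 0.142 with all libraries, and 0.0773 and 0.077 without WT replicate 1. The 3 libraries per group limit precision.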
